A study of Mus musculus with 24 samples.

Results

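The 37 genes described here encode proteins of the DNA damage checkpoint and of DNA repair. They were chosen by name, for their roles, with earlier results of these data known. All 37 were found among the 34113 genes of the deposited table, and all 37 passed the filter on low counts. They fall into 5 roles: 9 genes of break sensing and signalling, 3 checkpoint genes, 11 of homologous recombination, 9 of end joining and single-strand break repair, and 5 of crosslink, excision and mismatch repair.

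When both strands of DNA break, the MRN complex (Mre11a, Rad50 and Nbn) binds the ends and recruits the kinase Atm, which marks the neighbouring chromatin by phosphorylating the histone variant encoded by H2afx. Breaks are then joined end to end by non-homologous end joining at any stage of the cell cycle, or copied from the sister chromatid by homologous recombination in cells that have replicated their DNA. T cells use end joining to assemble their receptor genes, and loss of Atm is known for leaving such breaks unrepaired and for predisposing to lymphoid tumours.

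RNA came from splenic T lymphocytes of C57BL/6N mice, with CD4 and CD8 libraries prepared from the same mice. The genotype was Atmwt/wt (wild type, WT) or Atm-/- (knockout, KO), and mice had received a transplant of B-cell lymphoma (lymphoma) or none (control). This gave 8 groups with 3 libraries each, 24 libraries from 12 pools and 22 mice. Each WT lymphoma library came from 1 mouse. The labels used here do not state the Atm allele, the origin of the lymphoma, the time after transplantation, the age of the mice or how CD4 and CD8 cells were separated. The question set by the design is how T cells with and without Atm respond to the lymphoma.

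Total counts ran from 6470482 to 10196062 per library. Atm RNA averaged 175.2 CPM (gene counts scaled to a common library total) in CD4 WT and 85.0 in CD4 KO controls and 198.5 and 100.5 in CD8, so it was reduced and not absent in KO libraries. Each KO library was below each WT library of its co-receptor and condition. Cd4 stayed at or below 7.94 CPM in CD8 libraries and Cd8a at or below 22.5 in CD4 libraries, against at least 71.1 and 142.3 in the libraries of the matching label. T cell markers were present in each library, and the summed level of 16 of them (the pan-T list) was lowest, 1780 CPM, in CD8 KO lymphoma 1. That library also had the highest sum of 12 erythroid genes, 66078 CPM. Marker RNA of B cells, myeloid cells, neutrophils, erythroid cells, platelets, NK cells and blood progenitors was found as well.

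Below, a level is in CPM, and levels of different genes are not compared. A difference is a log2 fold change ± standard error from edgeR's quasi-likelihood test, with p-values adjusted by Benjamini-Hochberg over all genes tested, 12808 in CD4 and 12650 in CD8 libraries. The words rose and fell, and the word called, mean an adjusted p under 0.05. Averaged over WT and KO mice, 6 libraries against 6, 4 of the 37 genes rose with lymphoma in CD4 libraries, where 5.72% of all genes tested rose, and 0 fell, where 1.46% did. They were Fanca, Rad54l, Polq and Chek1. In CD8 libraries 8 of 37 rose, where 11.6% of all genes rose, and 0 fell, where 6.12% did. Those 8 hold the same 4 genes, together with Fanci, H2afx, Bard1 and Brca1, and the CD4 and CD8 libraries share their mice. The median difference of the 37 genes was 0.05 in CD4 and 0.06 in CD8 libraries, beside -0.02 and -0.03 over all genes tested. In bulk RNA, fewer cells of a type and less RNA per cell cannot be told apart.

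**Figure D1:**
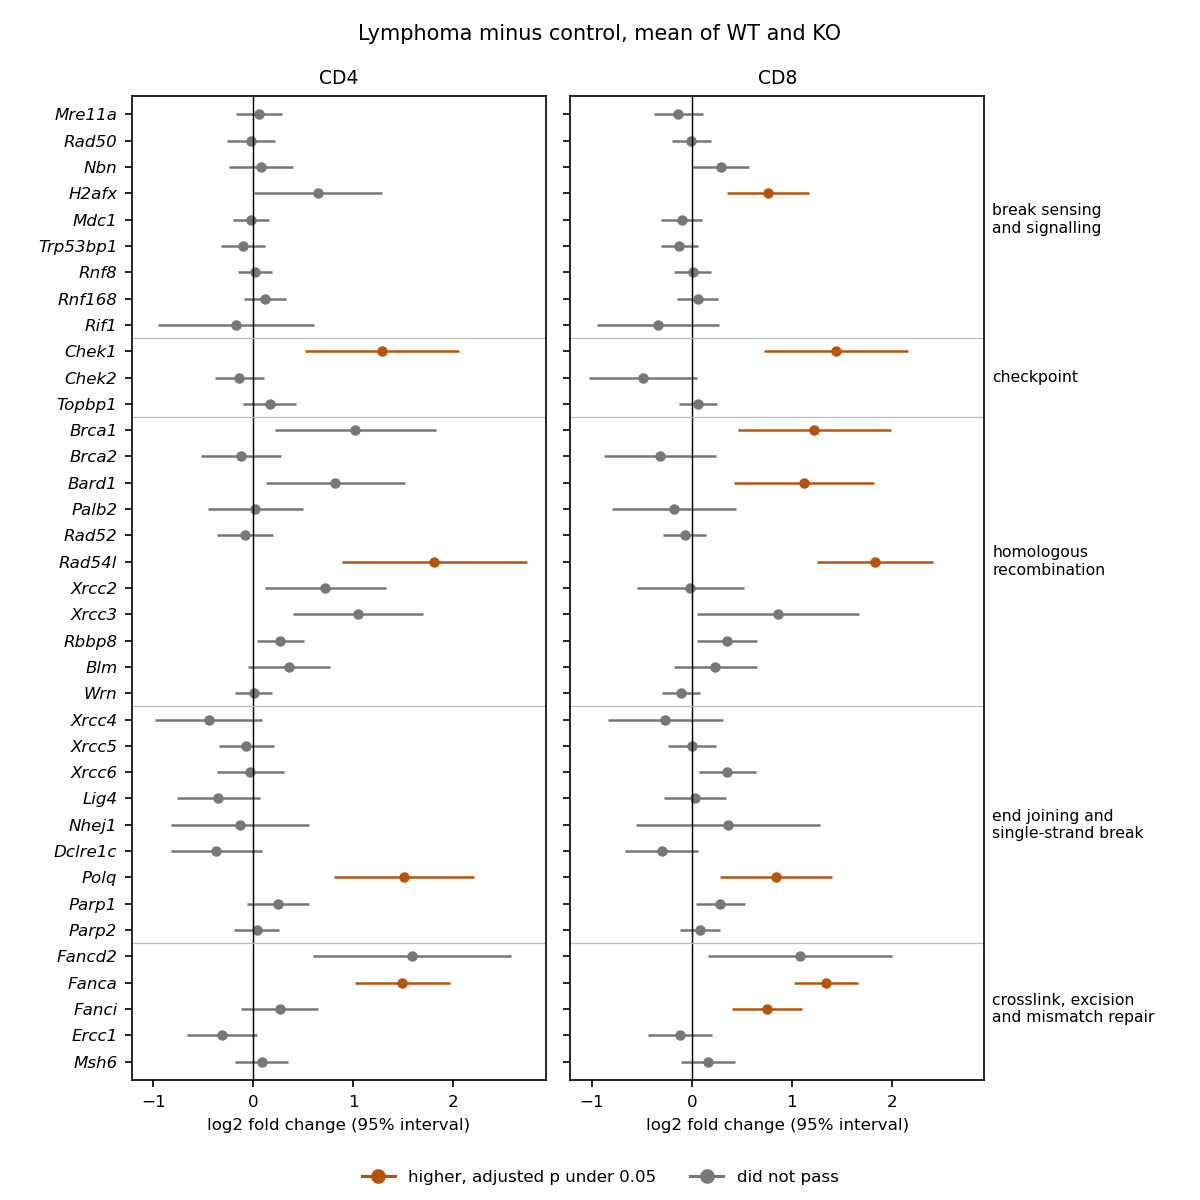
Log2 fold change (x axis) of each of the 37 genes (y axis, grouped by role) between lymphoma and control libraries, averaged over WT and KO, in CD4 (left) and CD8 (right) libraries. Points are estimates, lines are 95% intervals from the fitted model, and the 4 CD4 and 8 CD8 genes that rose are in orange.

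The counts of 4 and 8 moved with single libraries. In CD4 the count was 1 without WT control 1, KO control 3 or WT lymphoma 2, 2 without WT control 2, WT control 3, KO control 1 or WT lymphoma 3, 7 without WT lymphoma 1 and 9 without KO lymphoma 2. In CD8 it was 5 without WT control 1, KO control 1, KO control 3 or KO lymphoma 1 and 4 without WT lymphoma 3. The number called over all genes tested moved as well, from 375 to 2084 in CD4 and from 1027 to 3123 in CD8.

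Fanca (GRCm38, chromosome 8, 123268300 to 123318576) encodes a core subunit of the Fanconi anaemia ubiquitin ligase, which acts on DNA crosslinks at stalled replication forks. In CD4 libraries it was at 3.08, 2.43 and 2.63 CPM in WT controls, 5.87, 7.82 and 6.46 in KO controls, 5.94, 10.7 and 13.6 in WT lymphoma and 11.5, 13.3 and 21.2 in KO lymphoma libraries. In CD8 libraries it was at 4.80, 4.06 and 4.83 CPM in WT controls, 5.66, 5.80 and 4.76 in KO controls, 7.79, 10.3 and 13.3 in WT lymphoma and 17.2, 13.9 and 13.9 in KO lymphoma libraries. Every lymphoma library was above every control library of its genotype in both co-receptors, and in CD8 all 6 lymphoma libraries were above all 6 controls, as for 3.04% of all genes tested in CD8. Fanca rose by 1.49 ± 0.22 in CD4 (adjusted p = 0.00299) and by 1.34 ± 0.15 in CD8 (adjusted p = 0.000632). Both calls were kept without any 1 library and under every other setting tried.

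Rad54l (GRCm38, chromosome 4, 116094264 to 116123690) encodes a motor protein of strand invasion in homologous recombination. Its CD4 levels were 3.62, 4.51 and 3.09 CPM in WT controls, 10.4, 19.2 and 8.47 in KO controls, 12.003, 14.4 and 28.1 in WT lymphoma and 25.9, 11.1 and 70.2 in KO lymphoma libraries. Its CD8 levels were 4.95, 3.15 and 3.74 CPM in WT controls, 9.63, 13.1 and 7.43 in KO controls, 11.6, 18.1 and 25.7 in WT lymphoma and 29.4, 14.1 and 37.3 in KO lymphoma libraries. WT controls were at or below 4.95 CPM in all 6 libraries and WT lymphoma libraries at or above 11.6. KO lymphoma 3 was the highest library in both co-receptors. Rad54l rose by 1.83 ± 0.27 in CD8 (adjusted p = 0.00284), without any exception among the settings tried. In CD4 it rose by 1.81 ± 0.42 (adjusted p = 0.0286), a call that was lost without any 1 of the WT controls, KO control 1 or 3, or WT lymphoma 2 or 3 (adjusted p up to 0.0793), with no filter on low counts and with the replicate number as a block.

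Chek1 (GRCm38, chromosome 9, 36708482 to 36727065) encodes the checkpoint kinase that acts below Atr when replication stalls. In CD4 it was at 2.31, 1.85 and 1.24 CPM in WT controls, 5.07, 4.27 and 1.78 in KO controls, 3.79, 7.15 and 4.83 in WT lymphoma and 9.24, 3.10 and 12.9 in KO lymphoma libraries. In CD8 it was at 1.89, 1.01 and 2.90 CPM in WT controls, 1.53, 4.88 and 2.55 in KO controls, 3.304, 5.78 and 7.78 in WT lymphoma and 8.83, 5.22 and 8.87 in KO lymphoma libraries. All WT lymphoma libraries were above the WT controls in both co-receptors. In KO mice the CD4 libraries of the 2 conditions overlapped, since KO lymphoma 2 lay below KO controls 1 and 2. Chek1 rose by 1.44 ± 0.33 in CD8 (adjusted p = 0.0147), also without any 1 library. In CD4 it rose by 1.29 ± 0.35 (adjusted p = 0.0471), and that call was lost without any 1 library other than WT lymphoma 1 or KO lymphoma 2 (adjusted p up to 0.119), with Y-linked RNA as a covariate and with the replicate block.

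Polq (GRCm38, chromosome 16, 37011786 to 37095417) encodes DNA polymerase theta, which joins ends through short stretches of matching bases. It had 5 to 42 counts per library. CD4 levels were 0.769, 1.27 and 1.08 CPM in WT controls, 0.597, 2.19 and 1.34 in KO controls, 2.53, 4.92 and 3.12 in WT lymphoma and 3.82, 2.70 and 4.17 in KO lymphoma libraries. CD8 levels were 1.45, 1.92 and 1.69 CPM in WT controls, 0.764, 1.39 and 1.28 in KO controls, 2.48, 2.05 and 1.83 in WT lymphoma and 3.53, 2.29 and 3.08 in KO lymphoma libraries. In CD4 all 6 lymphoma libraries lay above all 6 controls, as for 1.42% of all genes tested, whereas in CD8 WT libraries the conditions overlapped. Polq rose by 1.51 ± 0.32 in CD4 (adjusted p = 0.0178), a call lost without WT control 1, KO control 3 or WT lymphoma 2 (adjusted p up to 0.055). In CD8 it rose by 0.84 ± 0.26 (adjusted p = 0.0417), a call kept without KO lymphoma 2 and lost without each other library (adjusted p up to 0.0938), with no low-count filter, with Y-linked RNA as a covariate and with the replicate block. The difference between the CD8 and CD4 responses of Polq was -0.68 ± 0.40 (adjusted p = 1), with a 95% interval from -1.51 to 0.15.

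**Figure D2:**
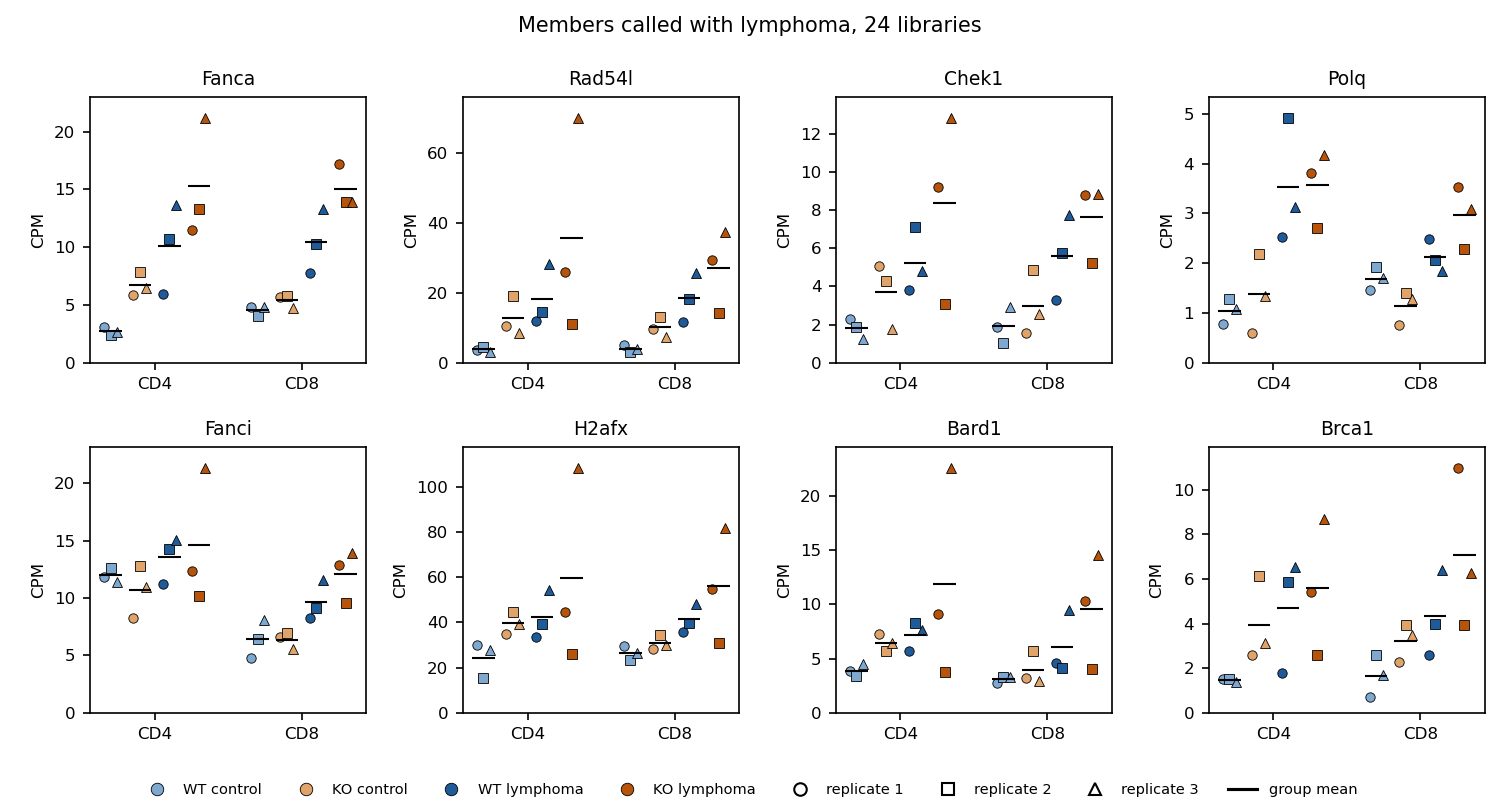
Level in CPM (y axis, from 0) of the 8 genes that rose with lymphoma, in the 12 CD4 and 12 CD8 libraries (x axis). Colours are the 4 groups of a co-receptor, shapes the replicate numbers and bars the group means. KO lymphoma 3 is the highest CD4 library for each gene but Polq.

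The sequences before the starts of the genes called in the most lymphoma comparisons are shown here, as RefSeq gives them for GRCm38.p6, because these genes rose together. Shown 5′ to 3′ on the strand of the gene are the bases just before the start, up to 250 and only as far as no annotated exon is met, which left 149 for Rad54l and 0 for Chek1. The regions are chr8:123318577-123318826 (minus strand), chr4:116123691-116123839 (minus strand) and chr16:37011536-37011785 (plus strand). Capitals mark CCAAT in Fanca and Rad54l and the CHR element (TTTGAA, read here on the opposite strand) in Polq.
Fanca: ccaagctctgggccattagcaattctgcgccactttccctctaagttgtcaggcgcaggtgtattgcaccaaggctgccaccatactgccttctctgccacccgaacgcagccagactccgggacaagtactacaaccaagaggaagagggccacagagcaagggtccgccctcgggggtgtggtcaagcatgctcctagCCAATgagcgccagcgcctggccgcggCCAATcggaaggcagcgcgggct
Rad54l: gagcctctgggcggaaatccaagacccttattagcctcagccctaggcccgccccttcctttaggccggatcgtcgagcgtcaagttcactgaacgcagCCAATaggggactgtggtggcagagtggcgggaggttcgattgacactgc
Polq: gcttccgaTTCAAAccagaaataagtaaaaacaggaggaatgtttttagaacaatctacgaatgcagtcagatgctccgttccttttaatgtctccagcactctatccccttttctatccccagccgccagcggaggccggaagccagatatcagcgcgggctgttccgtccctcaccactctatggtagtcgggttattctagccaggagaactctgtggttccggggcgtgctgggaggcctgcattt

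Fanca holds CCAAT with its first base 50 and 23 bases before the start, and Rad54l holds it 50 bases before the start. Polq holds a further TTTGAA across its start, which is not in the bases shown. RefSeq windows from 250 bases before to 50 after the start were matched for 29 of the 37 genes and for 27025 genes in all. CCAAT stood on either strand in 14 of the 29 windows and in 37.92% of all windows. A CHR element (TTTGAA or TTCGAA, either strand) stood in 3 of 29 and in 19.441% of all. An E2F motif (TTTCCCGC, TTTGGCGC, TTTCGCGC or TTTGCCGC, either strand) stood in 7 of 29 and in 2.316% of all. In 1 case hits of different motifs shared a base. Of the genes that rose with lymphoma, Bard1 held the E2F letters, while Fanca, Rad54l, Chek1, Polq, Fanci and Brca1 did not have these letters in this window. A match of letters is a description and not a binding site.

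In CD8 libraries the rise extended to a further crosslink repair gene, to the break-marking histone and to both partners of a ubiquitin ligase. Fanci (GRCm38, chromosome 7, 79391929 to 79450264), which encodes 1 of the pair of proteins that the Fanconi ligase modifies, was at 4.80, 6.42 and 8.09 CPM in WT controls, 6.57, 6.96 and 5.57 in KO controls, 8.26, 9.12 and 11.6 in WT lymphoma and 12.8, 9.58 and 13.9 in KO lymphoma libraries. All 6 CD8 lymphoma libraries were above all 6 controls, and Fanci rose by 0.76 ± 0.16 (adjusted p = 0.0108), also without any 1 library. In CD4 libraries Fanci was at 11.9, 12.6 and 11.4 CPM in WT controls, 8.26, 12.8 and 10.9 in KO controls, 11.2, 14.3 and 15.04 in WT lymphoma and 12.3, 10.2 and 21.3 in KO lymphoma libraries. There the conditions overlapped in both genotypes (0.26 ± 0.18, adjusted p = 0.386, 95% interval -0.12 to 0.65), and the difference between the responses was 0.49 ± 0.23 (adjusted p = 1).

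H2afx (GRCm38, chromosome 9, 44334694 to 44336077) encodes the histone variant phosphorylated beside breaks. CD8 libraries held it at 29.4, 23.2 and 26.6 CPM in WT controls, 28.1, 34.4 and 29.8 in KO controls, 35.9, 39.9 and 48.3 in WT lymphoma and 55.0, 30.9 and 81.9 in KO lymphoma libraries. CD4 libraries held it at 30.2, 15.3 and 27.8 CPM in WT controls, 34.9, 44.7 and 39.2 in KO controls, 33.6, 39.2 and 54.5 in WT lymphoma and 44.7, 25.9 and 108 in KO lymphoma libraries. KO lymphoma 3 was the highest library in both co-receptors, and KO lymphoma 2 lay within or below the range of its controls. H2afx rose by 0.76 ± 0.19 in CD8 (adjusted p = 0.0200), a call lost without WT lymphoma 3 (adjusted p = 0.0579) and in a fit of all 24 libraries. In CD4 the difference was 0.64 ± 0.29, adjusted p = 0.205, with a 95% interval from 0.00 to 1.28.

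Brca1 (GRCm38, chromosome 11, 101488764 to 101551955) and Bard1 (chromosome 1, 71027498 to 71103146) encode partners in a ubiquitin ligase that favours homologous recombination. Brca1 was at 0.727, 2.59 and 1.69 CPM in WT controls, 2.29, 3.95 and 3.48 in KO controls, 2.60, 3.98 and 6.41 in WT lymphoma and 10.98, 3.92 and 6.28 in KO lymphoma libraries of CD8 cells. CD8 Bard1 levels were 2.76, 3.27 and 3.26 CPM in WT controls, 3.21, 5.69 and 2.90 in KO controls, 4.60, 4.11 and 9.50 in WT lymphoma and 10.3, 4.03 and 14.5 in KO lymphoma libraries. In WT mice the CD8 conditions did not overlap for either gene, and in KO mice they did. Brca1 rose by 1.22 ± 0.35 and Bard1 by 1.12 ± 0.32 in CD8 (adjusted p = 0.0333 for both). Each call was lost without 8 of the 12 libraries in turn (adjusted p up to 0.0977 and 0.1), kept for Brca1 without WT control 2, WT lymphoma 1 or KO lymphoma 2 or 3 and for Bard1 without KO control 2, WT lymphoma 1 or 2 or KO lymphoma 2. Both were lost with the replicate block, and Bard1 with limma voom (adjusted p = 0.0564). In CD4 libraries Brca1 was at 1.54, 1.503 and 1.39 CPM in WT controls, 2.59, 6.15 and 3.12 in KO controls, 1.77, 5.86 and 6.53 in WT lymphoma and 5.42, 2.60 and 8.71 in KO lymphoma libraries. CD4 Bard1 levels were 3.84, 3.35 and 4.48 CPM in WT controls, 7.26, 5.73 and 6.46 in KO controls, 5.69, 8.32 and 7.66 in WT lymphoma and 9.12, 3.80 and 22.6 in KO lymphoma libraries. In CD4 libraries Brca1 differed by 1.02 ± 0.37, adjusted p = 0.116, and Bard1 by 0.82 ± 0.32, adjusted p = 0.139.

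Fancd2 and Xrcc3 came close to the threshold in CD4 libraries. Fancd2 encodes the partner of Fanci, and had 2 to 63 counts per library. It was at 0.549, 0.231 and 0.464 CPM in WT controls, 0.796, 2.71 and 2.01 in KO controls, 0.884, 3.99 and 2.13 in WT lymphoma and 2.59, 1.80 and 5.43 in KO lymphoma libraries of CD4 cells, a difference of 1.59 ± 0.45, adjusted p = 0.0553. Xrcc3, a gene of homologous recombination, differed by 1.04 ± 0.30, adjusted p = 0.0557, with the KO lymphoma libraries at 4.68, 4.01 and 13.1 CPM and the KO controls at 2.98, 2.92 and 3.57. In CD8 the differences were 1.08 ± 0.42 for Fancd2 and 0.86 ± 0.37 for Xrcc3 (adjusted p = 0.0930 and 0.122).

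Most of the early break-sensing genes had narrow intervals around no difference. The 95% interval of the averaged lymphoma difference lay within 1.5-fold in either direction for 19 of 37 genes in CD4 and 17 of 37 in CD8. In both co-receptors these included all 3 MRN genes, the scaffold gene Mdc1, Trp53bp1, which encodes a protein that shields ends from resection, and the ubiquitin ligase genes Rnf8 and Rnf168. How many of all genes tested had intervals as narrow was not counted. Rad50 differed by -0.02 ± 0.11 in CD4 and -0.00 ± 0.09 in CD8, and Rnf8 by 0.01 ± 0.08 and 0.01 ± 0.09. The levels of Rad50 ranged from 58.3 to 85.5 CPM over all 24 libraries and those of Rnf8 from 42.4 to 59.5. Topbp1, which activates Atr, also lay within 1.5-fold (0.16 ± 0.12 and 0.06 ± 0.09), as did the helicase gene Wrn (0.00 ± 0.09 and -0.11 ± 0.09). Of the 3 checkpoint genes, Chek2, which encodes the kinase directly below Atm, was the other that did not pass, with -0.14 ± 0.11 in CD4 and -0.49 ± 0.24 in CD8 (adjusted p = 0.467 and 0.183). The CD8 value includes KO control 1 at 144 CPM, beside 51.1 and 51.9 in the other KO controls.

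Classical end joining genes did not pass in either co-receptor. Xrcc5 and Xrcc6 encode the Ku subunits that bind broken ends. They differed by -0.07 ± 0.13 and -0.03 ± 0.15 in CD4 and by 0.00 ± 0.11 and 0.35 ± 0.13 in CD8 (adjusted p = 0.0781 for Xrcc6 in CD8). Lig4 and Xrcc4 encode the ligase and its partner. They differed by -0.35 ± 0.19 and -0.45 ± 0.25 in CD4 and by 0.03 ± 0.14 and -0.27 ± 0.26 in CD8. The nuclease gene Dclre1c was at -0.37 ± 0.21 and -0.30 ± 0.17, and Nhej1, which has 3 to 20 counts per library, at -0.13 ± 0.32 and 0.36 ± 0.42. Parp1 and Parp2, which encode enzymes that sense single-strand breaks, differed by 0.29 ± 0.11 and 0.08 ± 0.09 in CD8. In both co-receptors the 95% intervals of these 2 genes lay within 1.5-fold in either direction, and neither gene was called.

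The remaining recombination, excision and mismatch repair genes did not pass either. Rbbp8, which starts the resection of ends, differed by 0.35 ± 0.14, adjusted p = 0.0919 in CD8 libraries, and the recombination gene Xrcc2 by 0.72 ± 0.28, adjusted p = 0.139 in CD4. Brca2, which acts on resected ends, differed by -0.12 ± 0.18 and -0.32 ± 0.26, and Palb2, which ties it to Brca1, by 0.02 ± 0.22 and -0.18 ± 0.28 in CD4 and CD8. The CD8 value of Brca2 includes KO control 1 at 64.2 CPM, beside 19.3 and 27.0 in the other KO controls. Blm, Rad52, Ercc1 and Msh6 lay between -0.31 ± 0.16 (Ercc1 in CD4) and 0.36 ± 0.19 (Blm in CD4). Msh6, a subunit of the mismatch sensor, was at 0.08 ± 0.12 and 0.16 ± 0.12.

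The rises moved with those of genes for DNA replication and mitosis. Of 34 S phase genes 14 rose in CD4 and 23 in CD8, with medians of 0.98 and 0.76, and of 32 mitosis genes 11 and 26 rose, with medians of 1.41 and 1.54. The summed S phase level was 676 to 807 CPM in CD4 WT controls, 965 to 1229 in KO controls, 1069 to 1873 in WT lymphoma and 1111 to 3453 in KO lymphoma libraries. In CD8 it was 764 to 859, 882 to 1177, 1054 to 1604 and 1163 to 2421. The mitosis sum was 323 to 351 CPM in CD4 WT controls, 493 to 1145 in KO controls, 554 to 1187 in WT lymphoma and 715 to 2552 in KO lymphoma libraries. It was 306 to 379.8 CPM in CD8 WT controls, 348 to 603 in KO controls, 487 to 964 in WT lymphoma and 648 to 1821 in KO lymphoma libraries. WT controls were below all WT lymphoma libraries for both sums and both co-receptors. KO libraries of the conditions overlapped, except for the mitosis sum in CD8.

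Markers of other cells and of T cells moved as well. All 8 blood progenitor genes rose in both co-receptors, with a sum of 40.0 to 49.1 CPM in CD4 WT controls, 87.4 to 100.5 in KO controls, 107 to 297 in WT lymphoma and 146 to 544 in KO lymphoma libraries. In CD8 libraries the sum was 53.4 to 71.4 CPM in CD8 WT controls, 73.8 to 106 in KO controls, 104 to 261 in WT lymphoma and 128 to 462 in KO lymphoma libraries. Of 16 pan-T genes 1 fell in CD4 and 10 in CD8, and the pan-T sum was 5673 to 6529 CPM in CD4 WT controls, 4709 to 5354 in KO controls, 4375 to 5504 in WT lymphoma and 2692 to 4689 in KO lymphoma libraries. In CD8 libraries it was 4904 to 5676 CPM in CD8 WT controls, 4314 to 4654 in KO controls, 3579 to 4493 in WT lymphoma and 1779.5 to 3549.9 in KO lymphoma libraries, so that lymphoma libraries lay below controls in each genotype. Of 9 platelet genes tested 8 rose in CD4 and 7 in CD8, of 11 neutrophil genes 4 and 7, of 12 myeloid genes 3 and 5, and of 12 erythroid genes 1 and 5. In CD4 5 of 8 NK genes and 4 of 12 B cell genes fell, and in CD8 0 of either list were called by edgeR, with 2 NK and 0 B cell genes at an unadjusted p under 0.05. Of the 3 genes of the matching co-receptor lineage 1 fell in CD4 and 2 fell in CD8. The platelet sum was 55.7 to 80.1 CPM in CD4 WT controls, 134 to 316 in KO controls, 224 to 266 in WT lymphoma and 306 to 493 in KO lymphoma libraries, and the myeloid sum was 590.1 to 1043 CPM in CD4 WT controls, 1579.9 to 2098 in KO controls, 1204 to 1771 in WT lymphoma and 2110.1 to 2990.2 in KO lymphoma libraries. The highest CD4 sums of S phase, mitosis and blood progenitor genes were all in KO lymphoma 3, where H2afx, Rad54l, Chek1 and Fanca were also highest. The part that cycling cells, progenitors, other cell types or the loss of T cell RNA have in the repair gene results was not tested.

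**Figure D3:**
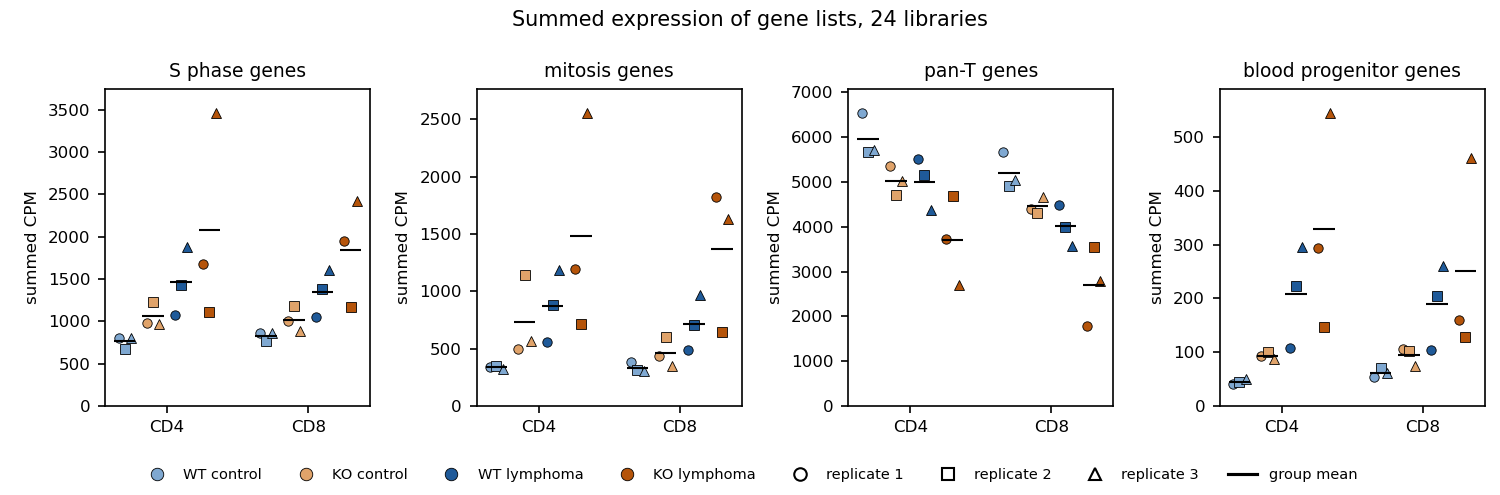
Summed CPM (y axis, from 0) of 34 S phase, 32 mitosis, 16 pan-T and 8 blood progenitor genes in the 24 libraries (x axis, by co-receptor). Colours are groups, shapes replicate numbers and bars group means, and CD4 KO lymphoma 3 has the highest S phase sum, 3453 CPM.

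Other genes of the DNA damage response, 115 of them tested, are not members of the list of 37. With lymphoma 6 of them rose and 1 fell in CD4, with a median of -0.03, and 15 rose and 7 fell in CD8, with a median of -0.07. In CD4 the nuclease gene Dna2 (1.35 ± 0.26), the recombination gene Rad51ap1 (1.73 ± 0.36) and the nuclease gene Exo1 (2.10 ± 0.48) were among those that rose, and the mismatch repair gene Mlh3 fell (-0.59 ± 0.16). In CD8 Rad51ap1 (1.67 ± 0.28), the excision repair gene Rad23b (0.43 ± 0.08) and the replicative ligase gene Lig1 (1.15 ± 0.19) were among those that rose. Smug1, a uracil glycosylase gene (-0.49 ± 0.10), the end joining gene Paxx (-0.61 ± 0.15) and the excision repair genes Ercc4 (-0.42 ± 0.11) and Ddb2 (-0.58 ± 0.16) fell in CD8.

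Within a genotype, fewer of the 37 genes passed. In CD4 WT mice Fanca rose (1.82 ± 0.32, adjusted p = 0.0162), 1 of 37 beside 1.62% of all genes, and 0 fell beside 0.0703%. In CD4 KO mice 0 of 37 passed, beside 0% of all genes. There 6 of 37 had an unadjusted p under 0.05, as had 1953 of all 12808 genes. DESeq2 called 1 (Fanca) and limma voom 1 (Polq), and their calls over all genes are not given here. In CD8 WT mice Fanca (1.21 ± 0.21, adjusted p = 0.0180) and Rad54l (2.24 ± 0.39, adjusted p = 0.0203) rose, 2 of 37 beside 1.26% of all genes, and 0 fell beside 0.158%. In CD8 KO mice Fanca rose (1.47 ± 0.21, adjusted p = 0.0169), 1 of 37 beside 1.39%, and 0 fell beside 0.791%. With lymphoma the libraries lay wholly above the controls for 10 genes in CD4 WT (16.4% of all genes), 5 in CD4 KO (8.8%), 10 in CD8 WT (14.2%) and 8 in CD8 KO (14%), and wholly below for 2 in CD4 WT (8.66%) and 4 in CD8 WT (14.9%). Each of these calls was lost without some single libraries. Fanca in CD4 WT and Rad54l in CD8 WT were each called without WT lymphoma 1 and lost without each other library (adjusted p up to 0.0866 and 0.099). Fanca in CD8 WT was kept without WT control 2 or WT lymphoma 1 and lost without the other 4 (up to 0.102), and Fanca in CD8 KO without KO control 1, 2 or 3 or KO lymphoma 1 (up to 0.119). Without KO lymphoma 2 the CD8 KO count was 8. Over the 6 libraries left out in turn, 0 to 1861 genes were called there among all genes tested.

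No test found a response to lymphoma that differed between the genotypes. The edgeR interaction called 0 of 37 genes in CD4 and 0 in CD8, beside 0% of all genes in each. In both, 0 of 37 had an unadjusted p under 0.05, beside 466 of 12808 and 442 of 12650 genes. DESeq2 and limma voom called 0 of 37. The intervals were wide: for Fanca the KO minus WT difference in response was -0.66 ± 0.43 in CD4 (95% interval -1.61 to 0.28) and 0.26 ± 0.29 in CD8 (-0.37 to 0.90). For Rad54l it was -0.77 ± 0.82 in CD4 (-2.59 to 1.04) and -0.83 ± 0.52 in CD8 (-1.97 to 0.32). Responses that differ by 2-fold were thus not excluded by these data for either gene in CD4 or for Rad54l in CD8. The difference in response between CD8 and CD4 libraries also called 0 of 37, beside 0% of all genes. There 0 of 37 and 409 of all 13232 genes had an unadjusted p under 0.05. DESeq2 and limma voom called 0 of 37.

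In each co-receptor 1 of the 37 genes was called between KO and WT libraries, no larger a share than that of all genes. A gene that was not called is not thereby shown to be unchanged. Averaged over control and lymphoma mice, Fanca rose in CD4 KO against WT libraries (0.90 ± 0.22, adjusted p = 0.0331), 1 of 37 beside 5.29% of all genes, and 0 fell beside 1.01%. Its CD4 libraries given above did not overlap between KO and WT controls, and did with lymphoma. In CD8 Rad54l rose (0.98 ± 0.26, adjusted p = 0.0493), 1 of 37 beside 2.85% of all genes, and 0 fell beside 3.6%. Its CD8 KO controls were all above the WT controls. In CD4 the averaged difference of Rad54l was 1.28, and in CD8 that of Fanca was 0.41, and neither was called. Members' medians were 0.04 in CD4 and 0.10 in CD8, beside -0.01 and 0.04 over all genes. The Fanca call was kept without WT lymphoma 3 or KO lymphoma 1 or 2 and lost without each other library (adjusted p up to 0.0811). The count was 2 without WT lymphoma 3, 1 without KO lymphoma 1, 4 without KO lymphoma 2 and 0 without each other library. Over all genes tested 224 to 1841 were called in these CD4 fits, and 205 to 1841 in the CD8 fits without 1 library. The Rad54l call was kept without WT lymphoma 3 or KO lymphoma 2, where the count was 1 and 3, and lost without each other library (adjusted p up to 0.114) and in 6 of 8 other settings.

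Markers of other cell types moved with genotype in the same comparisons. In CD4 10 of 12 myeloid, 7 of 9 platelet, 5 of 8 NK, 2 of 12 erythroid and 1 of 8 blood progenitor genes rose in KO libraries, and 1 of 16 pan-T and 1 of 3 CD4 lineage genes fell. The CD4 myeloid sums given above were higher in all KO than in all WT libraries of the same condition. The same held for CD8 myeloid sums, at 220 to 1166 CPM in WT controls and 1334 to 1354 in KO controls. With lymphoma they were at 1152 to 1938 CPM in WT and 2063 to 2803 in KO libraries. NK sums, too, were higher in all KO than in all WT libraries of the same condition, in both co-receptors. In CD8 2 of 9 platelet, 1 of 8 NK and 1 of 12 erythroid genes rose and 3 of 16 pan-T genes fell. Their part in the Fanca and Rad54l results was not tested.

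**Figure D4:**
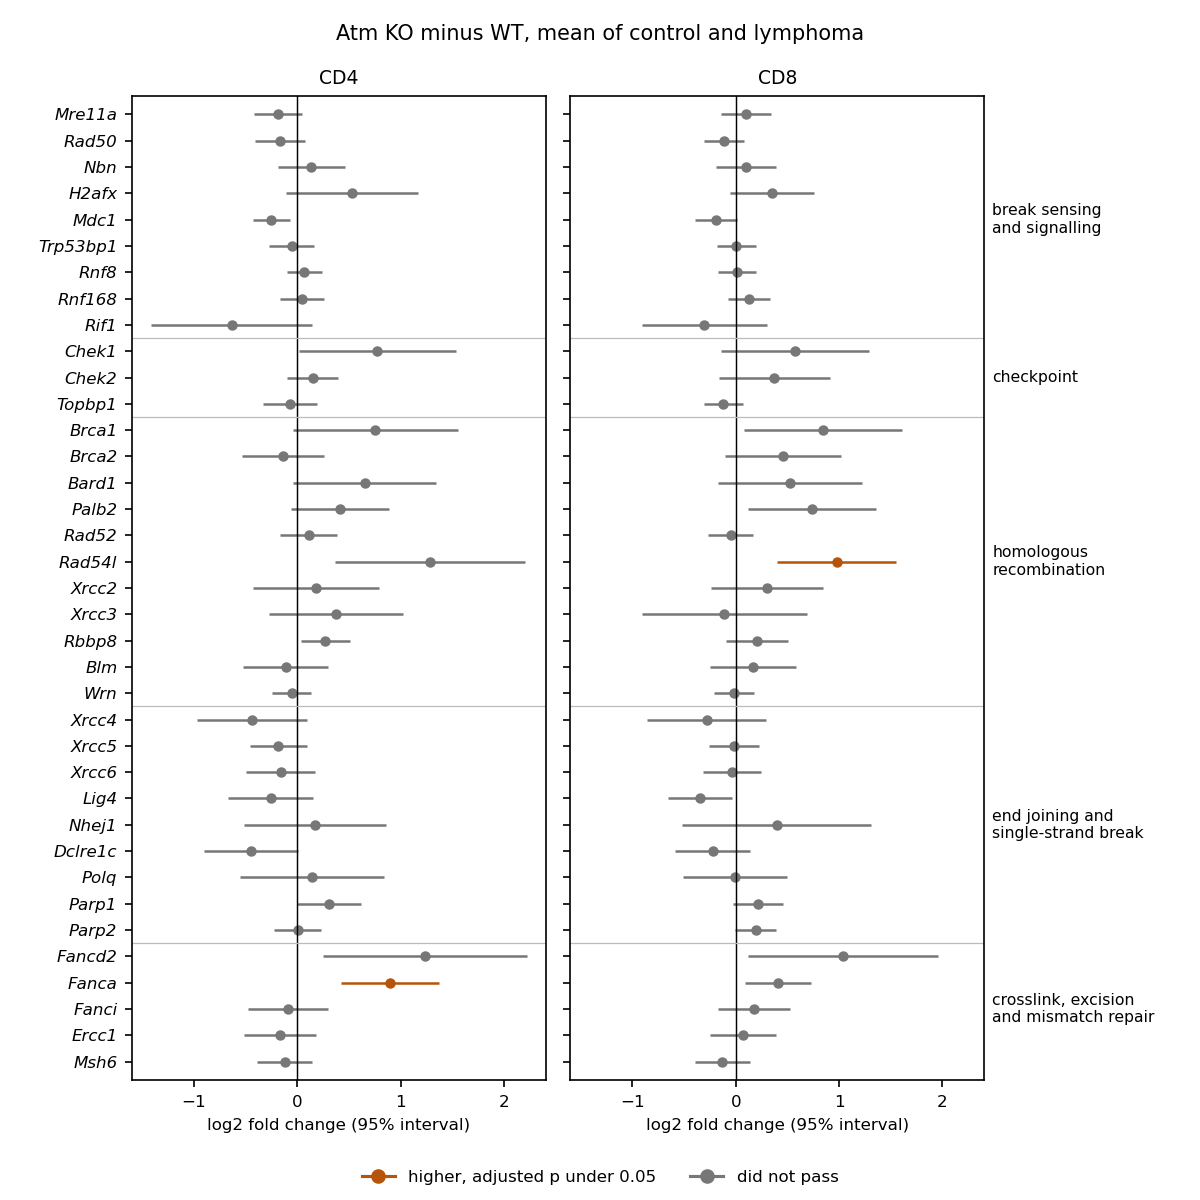
Log2 fold change (x axis) of the 37 genes (y axis, grouped by role) between KO and WT libraries, averaged over control and lymphoma, in CD4 (left) and CD8 (right). Points are estimates and lines 95% intervals, and in orange are Fanca in CD4 and Rad54l in CD8, which rose.

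In a single condition the edgeR test called 0 of 37 genes between KO and WT libraries. In CD4 controls this stood beside 2.01% of all genes. There 5 of 37 and 2324 of all 12808 genes had an unadjusted p under 0.05. DESeq2 called 2 (Fanca and Rad54l) and limma voom 1. Fanca differed there by 1.23 ± 0.32, adjusted p = 0.0709, and 10 genes were higher and 6 lower in all 3 KO than in all 3 WT controls, where 21.4% and 11.3% of all genes were. With lymphoma the CD4 groups overlapped for all 37 genes, where 6.81% of all genes were wholly higher and 6.09% wholly lower. There 0% of all genes were called, and 1 of 37 and 1390 of all 12808 had an unadjusted p under 0.05. DESeq2 and limma voom called 0 of 37. In CD8 controls 0.522% of all genes were called, and 1 of 37 and 1861 of all 12650 had an unadjusted p under 0.05. DESeq2 called 1 (Rad54l, 1.39 ± 0.39, adjusted p = 0.160 in edgeR) and limma voom 0. There 1 gene was wholly higher and 5 wholly lower in KO (12.1% and 12.7% of all genes). With lymphoma in CD8 0.245% of all genes were called, and 4 of 37 and 2275 of all 12650 had an unadjusted p under 0.05. DESeq2 and limma voom called 0 of 37. Without KO lymphoma 2 edgeR called 2 of 37. Over the 6 libraries left out in turn, 1 to 978 genes were called among all genes tested. With no library left out, 3 genes were wholly higher in KO (8.03% of all genes).

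Of the 9 break-sensing genes 7 had KO minus WT intervals within 1.5-fold in both co-receptors, and Rif1 and H2afx did not. The 95% interval of the averaged KO minus WT difference lay within 1.5-fold for 20 of 37 genes in CD4 and 19 of 37 in CD8, among them Mre11a, Rad50, Nbn, Mdc1, Trp53bp1, Rnf8 and Rnf168 in both. Here too the share of all genes with such intervals was not counted. Mdc1 differed by -0.25 ± 0.08, adjusted p = 0.0950 in CD4 and -0.19 ± 0.09 in CD8, and Mre11a by -0.19 ± 0.11 and 0.10 ± 0.11. Rif1 differed by -0.64 ± 0.36 in CD4 (95% interval -1.42 to 0.15) and -0.30 ± 0.27 in CD8 (-0.91 to 0.31), and H2afx by 0.53 ± 0.29 (-0.11 to 1.17) and 0.35 ± 0.19 (-0.05 to 0.76). Of the other genes of the DNA damage response 0 of 115 were called by edgeR in CD4. An unadjusted p under 0.05 was found for 15 of them, beside 3107 of all 12808 genes. In CD8 1 rose and 2 fell: the excision repair gene Ercc5 (-0.46 ± 0.11) and Uimc1, a member of a Brca1 complex (-0.38 ± 0.10), fell. Of the 34 S phase genes 0 rose in CD4, with 10 at an unadjusted p under 0.05, and 2 rose in CD8, and of the 32 mitosis genes 1 rose in CD4 and 3 rose and 1 fell in CD8, with medians of 1.08 and 0.87. The sum of 3 Y-linked genes was at 68.1 to 189 CPM in CD4 WT controls and at 1.25 to 57.7 in CD4 KO controls. CD8 libraries, from the same pools, had it at 54.7 to 178 CPM in WT and 2.79 to 66.5 in KO controls. Genotype and the sex mix of the pools thus moved together in controls, with a small overlap in CD8 libraries. With lymphoma WT and KO libraries overlapped, at 1.88 to 117 and 0.986 to 51.5 CPM in CD4. In CD8 they were at 1.41 to 161 and 3.04 to 46.4 CPM. In WT mice the sex mix also differed by condition, with a median sum of 125 CPM in CD4 controls and 4.80 with lymphoma. It was 118 and 4.72 in CD8, with overlapping libraries. With that sum as a covariate Fanca kept its CD4 call (1.10, adjusted p = 0.018), and Rad54l lost its CD8 call (1.10, adjusted p = 0.0573).

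CD8 and CD4 libraries were compared over all 4 groups in a fit of 24 libraries and 13232 genes. Of the 37 genes 4 were lower in CD8, beside 7.1% of all genes, and 0 were higher, beside 6.58%. They were Fanci, Nbn, Lig4 and Msh6, and the members' median was -0.02 beside -0.01 over all genes. Fanci was -0.52 ± 0.12 (adjusted p = 0.00367), with all 3 CD8 libraries below all 3 CD4 libraries in WT and in KO controls but not with lymphoma. The share of all genes that separate in this way within a group was not counted. The Fanci call held without any 1 library.

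Nbn, the MRN subunit that recruits Atm, was at 21.6, 16.1 and 14.1 CPM in CD4 WT controls, 19.7, 16.2 and 20.5 in KO controls, 13.8, 20.9 and 19.2 in WT lymphoma and 20.2, 17.8 and 26.5 in KO lymphoma libraries. In CD8 it was at 13.1, 13.4 and 14.4 CPM in WT controls, 11.3, 11.6 and 13.6 in KO controls, 14.3, 14.1 and 13.8 in WT lymphoma and 15.6, 13.7 and 23.1 in KO lymphoma libraries. For Nbn, Lig4 and Msh6 the CD8 libraries were all below the CD4 libraries in KO controls, and the co-receptors overlapped in the other 3 groups. Here too the share of all genes was not counted, so the separation is a description only. Nbn differed by -0.33 ± 0.10, adjusted p = 0.0290. Lig4, the ligase of end joining, was at 31.3, 41.7 and 48.5 CPM in WT controls, 29.1, 39.8 and 34.2 in KO controls, 37.4, 22.5 and 35.6 in WT lymphoma and 36.2, 29.0 and 19.1 in KO lymphoma libraries of CD4 cells. CD8 libraries had Lig4 at 33.2, 24.2 and 26.2 CPM in WT controls, 20.6, 22.6 and 17.5 in KO controls, 24.5, 27.0 and 28.3 in WT lymphoma and 27.4, 23.4 and 14.9 in KO lymphoma libraries. Its difference was -0.41 ± 0.13, adjusted p = 0.0366. Msh6 was at 53.7, 38.7 and 50.4 CPM in WT controls, 49.8, 48.9 and 43.1 in KO controls, 57.9, 60.7 and 43.6 in WT lymphoma and 46.0, 38.7 and 64.3 in KO lymphoma libraries of CD4 cells. CD8 libraries had Msh6 at 39.7, 33.5 and 48.8 CPM in WT controls, 30.1, 33.7 and 36.9 in KO controls, 39.8, 41.6 and 44.1 in WT lymphoma and 36.2, 33.1 and 52.6 in KO lymphoma libraries, a difference of -0.27 ± 0.09, adjusted p = 0.0478. Leaving out 1 library at a time, the Nbn call was lost in 10 of 24 cases, the Lig4 call in 16 and the Msh6 call in 18 (adjusted p up to 0.085, 0.0814 and 0.12). With no low-count filter Nbn and Msh6 were lost, and Msh6 also with upper-quartile scaling and the stricter filter. Without 1 library the count ran from 1 to 4, and it was 2 without 11 of them and 1 without CD4 KO control 3, CD8 WT control 2, CD8 KO control 1 or CD8 WT lymphoma 3. Over all genes tested 1554 to 2261 were called in these fits. With the mouse pool as a block, which pairs the CD8 and CD4 libraries of the same mice, the same 4 genes were lower. The interval lay within 1.5-fold for 28 of the 37 genes, and the share of all genes was not counted. Of the other 115 genes of the DNA damage response 3 were higher in CD8, among them the single-strand break repair scaffold gene Xrcc1 (0.35 ± 0.09) and Rpa2 (0.38 ± 0.11), which encodes a subunit of the single-strand binding protein. Of the 6 that were lower, Neil2, a glycosylase gene (-0.82 ± 0.18), Parp3 (-0.44 ± 0.10), Mlh3 (-0.46 ± 0.11) and Rpa1 (-0.18 ± 0.05) had the smallest p. No call was made for the KO minus WT difference between CD8 and CD4 (0 of 37 by edgeR, beside 0.0982% of all genes). There 0 of 37 and 851 of all 13232 genes had an unadjusted p under 0.05. DESeq2 and limma voom called 0 of 37.

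Of the 37 genes 12 have exons that overlap exons of a protein-coding gene on the opposite strand. No source used here gives the use of strand in counting, so reads of a member and its partner may not have been told apart. Exons of 1 member, Rnf8, overlap those of the protein-coding gene Gm28043 on the same strand, where strand cannot separate the reads. The partner of Fanci is Polg, the mitochondrial polymerase gene, which was also lower in CD8 (-0.53 ± 0.07, adjusted p = 7.79e-06), whereas with lymphoma in CD8 Polg was at -0.28 ± 0.09 while Fanci rose. The partner of Fanca, Zfp276, was at -0.43 ± 0.13 in CD4 and -0.31 ± 0.11 in CD8 with lymphoma and was not called. The partner of Rad54l, Lrrc41, was at 0.82 ± 0.34 and -0.02 ± 0.33 and was not called.

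Some libraries stood apart for single members, which were picked after their values were seen. Rif1 (GRCm38, chromosome 2, 52072832 to 52122383), which acts with Trp53bp1 to limit resection, was at 193, 199.5 and 157 CPM in WT controls, 82.7, 142 and 116 in KO controls, 161, 199.9 and 104 in WT lymphoma and 146, 153 and 28.9 in KO lymphoma libraries of CD4 cells. In CD8 cells it was at 166, 155 and 161 CPM in WT controls, 125, 134 and 131 in KO controls, 126, 123 and 137 in WT lymphoma and 129.8, 139 and 32.5 in KO lymphoma libraries. Both low values are from the mouse pool KO lymphoma 3, whose Atm levels were also the lowest, 26.9 CPM in CD4 and 40.1 in CD8. Among 8240 genes averaging at least 10 CPM, 0.449% in CD4 and 0.837% in CD8 were as far below the other libraries of the group in that pool. The KO controls were all below the WT controls in both co-receptors, where 11.3% of all genes in CD4 and 12.7% in CD8 were. The KO minus WT difference in controls was -0.77 ± 0.50, adjusted p = 0.446 in CD4 and -0.27 ± 0.39, adjusted p = 0.778 in CD8, and averaged over conditions -0.64 ± 0.36, adjusted p = 0.296 and -0.30 ± 0.27, adjusted p = 0.508. The lymphoma difference of Rif1 was -0.18 ± 0.35, adjusted p = 0.789 in CD4 and -0.34 ± 0.27, adjusted p = 0.415 in CD8.

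Chek2 and Brca2 were high in CD8 KO control 1. Chek2 was at 144, 51.1 and 51.9 CPM in the 3 CD8 KO controls and from 43.5 to 65.1 in the other CD8 libraries. Brca2 was at 64.2, 19.3 and 27.0 there, and from 17.1 to 29.0 in the others. For 0.643% and 0.68% of the 8240 genes this library was as far above its group. The sum of 1103 olfactory receptor genes, a family of odour sensors, was 2080 CPM in this library and 607 to 1184 in the rest. Its part in these 2 values was not tested.

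**Figure D5:**
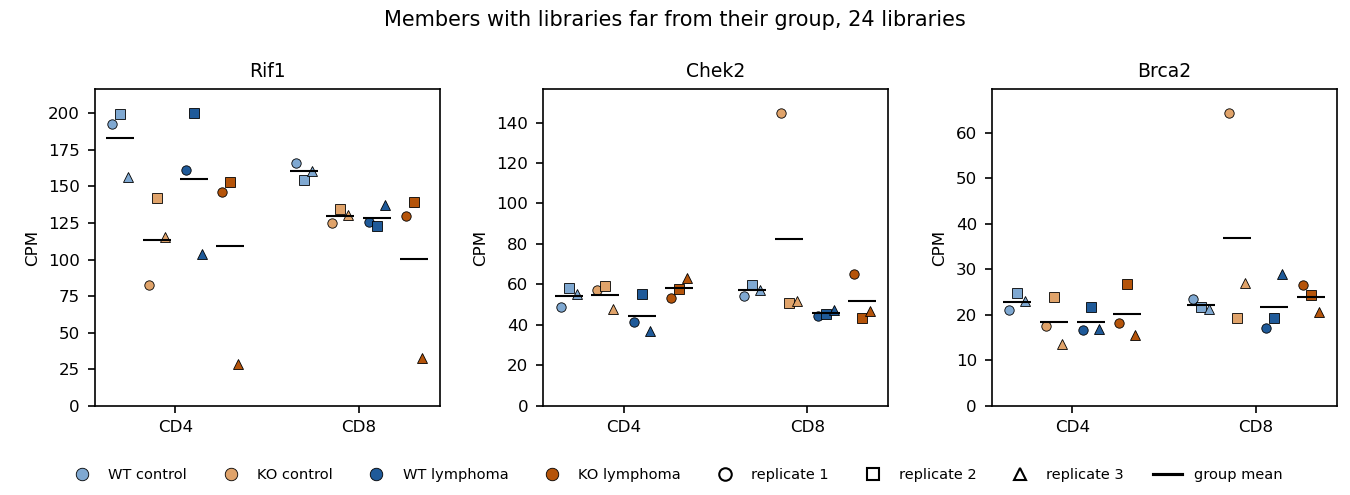
Level in CPM (y axis, from 0) of Rif1, Chek2 and Brca2 in the 24 libraries (x axis, by co-receptor). Colours are groups, shapes replicate numbers and bars group means, with Rif1 lowest in both KO lymphoma 3 libraries and Chek2 and Brca2 highest in CD8 KO control 1.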

How the data were processed

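The members and gene lists were chosen with earlier results of these data known. RNA was captured as 3′ tags (Lexogen QuantSeq FWD), per the labels. The authors' deposited table holds estimated counts per gene. The submitters' processing notes name Salmon 0.11.3, without its role, and a human genome build for these mouse samples. How the counts were summarized, and whether they use strand, is not stated in them. Counts were rounded to whole numbers, and 2 genes holding a letter in place of a number were dropped.

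Each co-receptor had its own fit (12 libraries, 8 residual degrees of freedom), with all 24 libraries for CD8 against CD4 (16). Genes were kept with filterByExpr (minimum count 10, minimum total 15), scaled with TMM (factors 0.903 to 1.12) and tested with robust glmQLFTest in edgeR 4.0.16 under R 4.3.3, adjusted over all genes tested. CPM are counts divided by the library total over all named genes and scaled to a common total, without TMM. Intervals come from the fitted model. Whether libraries were extracted separately is not stated, so p-values measure the spread between these libraries. No 2 replicates agreed within sampling noise (smallest chi-square per degree of freedom 4.66). Positions are from GENCODE M21 on GRCm38.

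Genes given in every library were those called in any comparison, or the 2 with the smallest p per averaged comparison. Others of the pathway were named up to 4 per direction, and some of them are not reported here. Fancd2, Xrcc3, Rif1, Chek2 and Brca2 were added after their values were seen. Alternatives were DESeq2 1.42.0, upper-quartile scaling, dropping the filter, a filter of 30 counts in 3 libraries, limma 3.58.1 voom with sample weights, a Y-linked covariate, all 24 libraries in 1 fit, blocks and each library left out. CD8 and CD4 libraries of a pool are from the same mice by label (correlation of deviations -0.0176 to 0.524), and there the block was the pool. In CD4 lymphoma KO against WT same-numbered libraries deviated together (0.213, 0.171 and 0.321), and the block left the count at 0. Other numbers did not pair the libraries. In simulated data edgeR recovered 62 of 100 genes changed 2-fold and 92 of 100 changed 4-fold in the CD4 lymphoma average over 12808 genes. In the CD8 average over 12650 genes it recovered 63 and 89. False calls numbered 4 in CD4 and 8 in CD8. The changed genes were drawn from all genes tested, so these rates need not hold for members with few counts.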

Additional observations from a re-analysis of the deposited data

How the results depend on the processing

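Over 463 alternative values for single genes that were called, 0 reversed and 313 kept the call, among them all values for Fanca and Fanci in the averaged CD8 lymphoma comparison. In CD4, genes called KO against WT numbered 2 (DESeq2), 1 (voom), 1 (Y-linked covariate) and 1 (all 24 libraries) in controls against 0, and 2, 4, 2 and 2 on average against 1. With lymphoma, CD4 counts were 1 (DESeq2) and 1 (voom) against 0 in KO and 4 (DESeq2) and 3 (all 24 libraries) against 1 in WT. In CD8 they were 6 (DESeq2), 2 (stricter filter), 2 (voom) and 2 (all 24 libraries) against 1 in KO. CD8 KO against WT gave 1 (DESeq2) against 0 in controls, and on average 0 against 1 with upper-quartile scaling, no filter, voom, the Y-linked covariate, the replicate block or all 24 libraries. CD8 against CD4 gave 2 with no filter against 4. The calls over all genes under these settings are not given here, so these counts have no share beside them.

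The replicate number as a block left 2 of 4 genes in the CD4 and 5 of 8 in the CD8 averaged lymphoma comparison. It changed no other count by more than 1.5 times beside those named. Same-numbered libraries share only a number there.

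Without each library in turn, the count ran from 1 to 9 (CD4) and 4 to 12 (CD8) for the averaged lymphoma comparison, 0 to 1 (CD4 WT), 0 to 2 (CD8 WT) and 0 to 8 (CD8 KO) within genotypes, 0 to 4 (CD4) and 0 to 3 (CD8) for averaged KO against WT, 0 to 2 for CD8 KO against WT with lymphoma, and 1 to 4 for CD8 against CD4. It stayed at 0 elsewhere. Calls over all genes tested ran from 375 to 2084 (CD4) and 1027 to 3123 (CD8) for the averaged lymphoma comparison. Within genotypes they ran from 31 to 294 (CD4 WT), 23 to 271 (CD8 WT) and 0 to 1861 (CD8 KO). Both libraries of the pool KO lymphoma 3 were left out of the fit of 24 after seeing the data, which kept the same 4 genes. Chek1, Brca1, Polq, Fancd2 and Nhej1 had 8 or fewer counts in their lowest library, which limits the precision of their values.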
